A study of Mus musculus with 2 samples.

Results

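Notch1 peaks were examined at 118 protein-coding genes whose products build, start or run protein synthesis and protein breakdown: 68 translation factor genes (55 with symbols that begin with Eif, for eukaryotic initiation factor, and 13 with Eef, for eukaryotic elongation factor) and 50 proteasome genes (Psm). The members were chosen by symbol alone, Eif or Eef followed by a digit or Psm followed by a family letter and a digit, from 21938 protein-coding genes on the nuclear chromosomes in GENCODE M21. The peaks came from chromatin immunoprecipitation and sequencing (ChIP-seq) of gamma delta T cells, taken 0 to 3 days after birth from thymuses of C57BL/6 mice with a wild type genotype. The 1 library made with an antibody to Notch1 (clone D1E11) gave 5913 peaks on build mm10, 5910 of them nuclear, and the 1 input library of the same cells was not analysed here. The labels name no treatment and no other genotype. Whether animals were pooled was not given in the sources used here.

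Because there is 1 antibody library, there is no replicate and no test between conditions. Intervals on shares are Wilson 95% intervals, which cover counting error over genes and not the spread between animals. Read depth is unknown, because a peak list holds no read counts. Of 8 genes that mark gamma delta T cells, Cd247 alone had a peak within 5 kb of a start site, and none of the markers of alpha beta thymocytes (6 genes), B cells (4), thymic epithelium (5) and myeloid cells (3) had one. A peak list does not measure expression, so these counts do not check the identity of the cells.

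Notch1 is a receptor whose released intracellular part enters the nucleus and is held on DNA by the protein RBPJ. Initiation factors bring the small ribosomal subunit, the initiator tRNA and the capped mRNA together, and elongation factors deliver aminoacyl-tRNA and move the ribosome along. The proteasome degrades proteins tagged with ubiquitin: a 20S core of alpha and beta rings does the cutting, a 19S regulator unfolds the substrate, and 11S activators open the core. Lymphoid cells and cells exposed to interferon gamma exchange some beta subunits for immunoproteasome subunits, which favour peptides for MHC class I.

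Of the translation factor genes, 11 of 68 (16.2%, 9.28 to 26.7) had a peak within 1 kb of an annotated start site, where the background over all protein-coding genes was 5.16%. Within 5 kb, 14 of 68 (20.6%, 12.7 to 31.6) had one, where the background was 8.81%. Of the proteasome genes, 5 of 50 (10%, 4.35 to 21.4) had a peak within 1 kb and 7 of 50 (14%, 6.95 to 26.2) within 5 kb. Relative to the other 21820 protein-coding genes (5.11% within 1 kb and 8.76% within 5 kb), the translation factor share was 3.16 times as high within 1 kb and 2.35 times within 5 kb. For the proteasome genes the same ratios were 1.955 and 1.598. The intervals of the translation factor shares lay above the share of other genes at both distances, and those of the proteasome shares held it. The intervals of both groups overlapped each other, and the difference between the groups was not tested.

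Most members have promoters rich in CpG dinucleotides, and such promoters held peaks more often in all genes. The CpG ratio used here is the observed number of CpG over the number that the C and G content gives, in the bases around a start site, at the start site of the gene where it is highest. Its median was 0.841 in the translation factor genes, 0.722 in the proteasome genes and 0.625 in other genes. With all genes divided into 10 equal classes of the ratio, 0.638% of other genes in the lowest class and 11.3% in the highest had a peak within 1 kb, and 1.64 and 16.7% had one within 5 kb. The 4 highest classes held 51 of the 68 translation factor genes, 26 of the 50 proteasome genes and 8698 of the 21820 other genes. Among translation factor genes the median ratio was 0.848 with a peak within 5 kb and 0.840 without one, and among proteasome genes 0.693 and 0.727. Other genes with a peak had a median of 0.781, and those without 0.599.

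**Figure D1:**
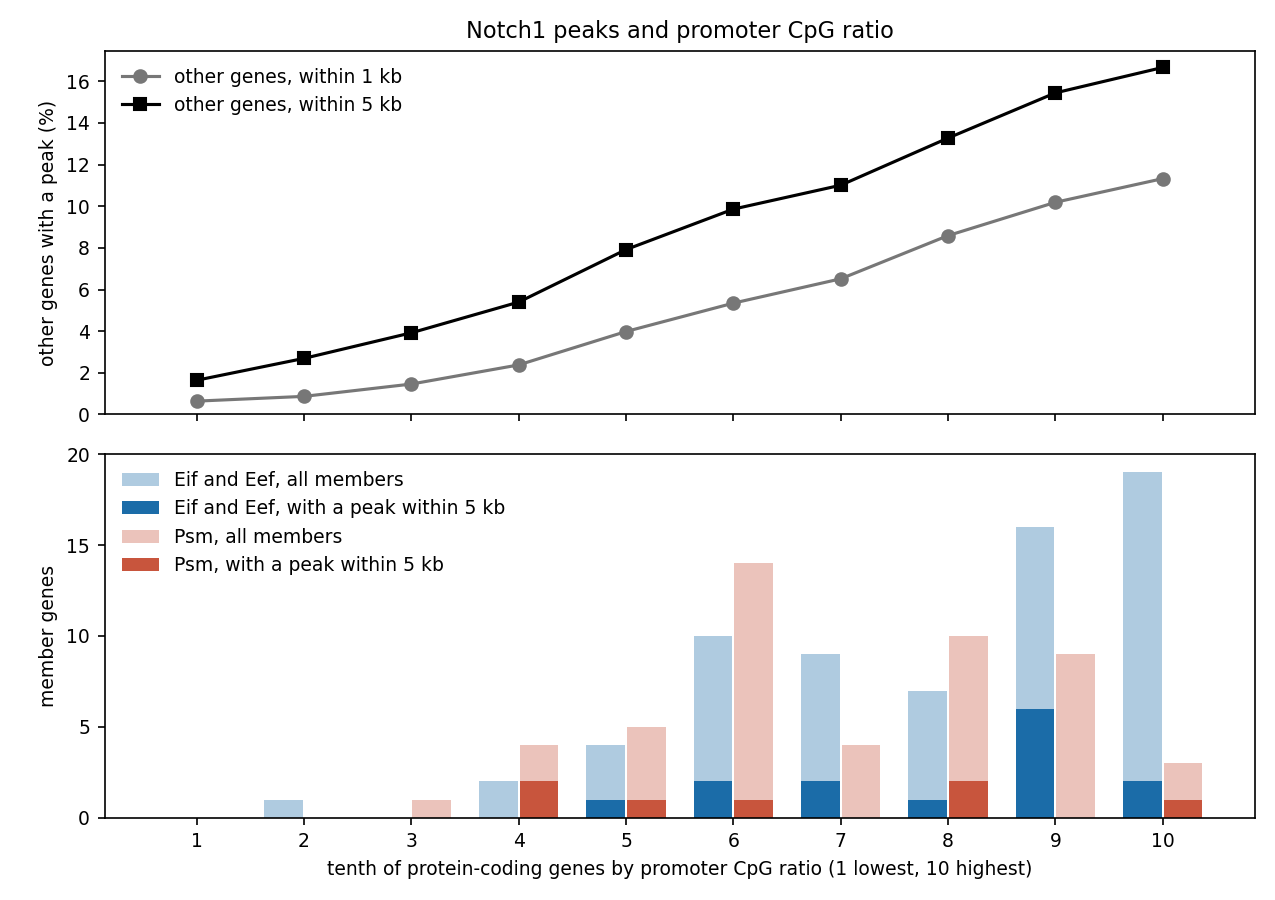
The upper panel plots the share of other protein-coding genes with a peak (vertical axis, percent) in each of 10 classes of promoter CpG ratio (horizontal axis), within 1 kb (circles) and 5 kb (squares), and the lower panel counts the member genes in each class (pale bars, all members; dark bars, those with a peak within 5 kb). The share within 5 kb goes from 1.64% in the lowest class to 16.7% in the highest, which holds 19 translation factor genes, of which 2 have a peak.

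Genes of similar promoter CpG ratio therefore make a closer comparison. When other genes were weighted to the CpG classes of the translation factor genes, 8.41% (7.88 to 8.94) had a peak within 1 kb and 13.2% (12.6 to 13.9) within 5 kb. This corresponds to 5.72 genes with a peak within 1 kb, beside 11 observed, and 9.0 within 5 kb, beside 14 observed. Weighted to the proteasome genes, the share of other genes was 6.87% (6.42 to 7.32) within 1 kb and 11.4% (10.8 to 11.9) within 5 kb, which corresponds to 3.43 and 5.69 genes, beside 5 and 7 observed. The translation factor share was thus 1.92 times that of genes with similar CpG ratio within 1 kb and 1.56 times within 5 kb, and the proteasome share 1.46 and 1.23 times. The proteasome ratio turned below 1 with only subunits of the 20S core and 19S regulator (0.786 within 1 kb and 0.951 within 5 kb) and with a window of 20 kb (0.921). The weighted share lay below the interval of the translation factor genes within 1 kb, and inside the members' interval in the remaining 3 cases. For the translation factors within 5 kb this depended on how the CpG ratio was taken: with its mean over start sites (11.4%) or a narrower promoter window (12.4%) the weighted share lay below the interval. Taking instead the other genes whose ratio lay between the quartiles of the members gave 8.62% of 6335 genes within 1 kb and 13.5% within 5 kb for the translation factors, and 7.12% of 5551 genes and 11.7% for the proteasome. The median number of start sites was 4 in translation factor genes, 5 in proteasome genes and 3 in other genes. Weighting by both the CpG ratio and the number of start sites gave 8.44 and 6.94% within 1 kb and 13.2 and 11.5% within 5 kb.

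**Figure D2:**
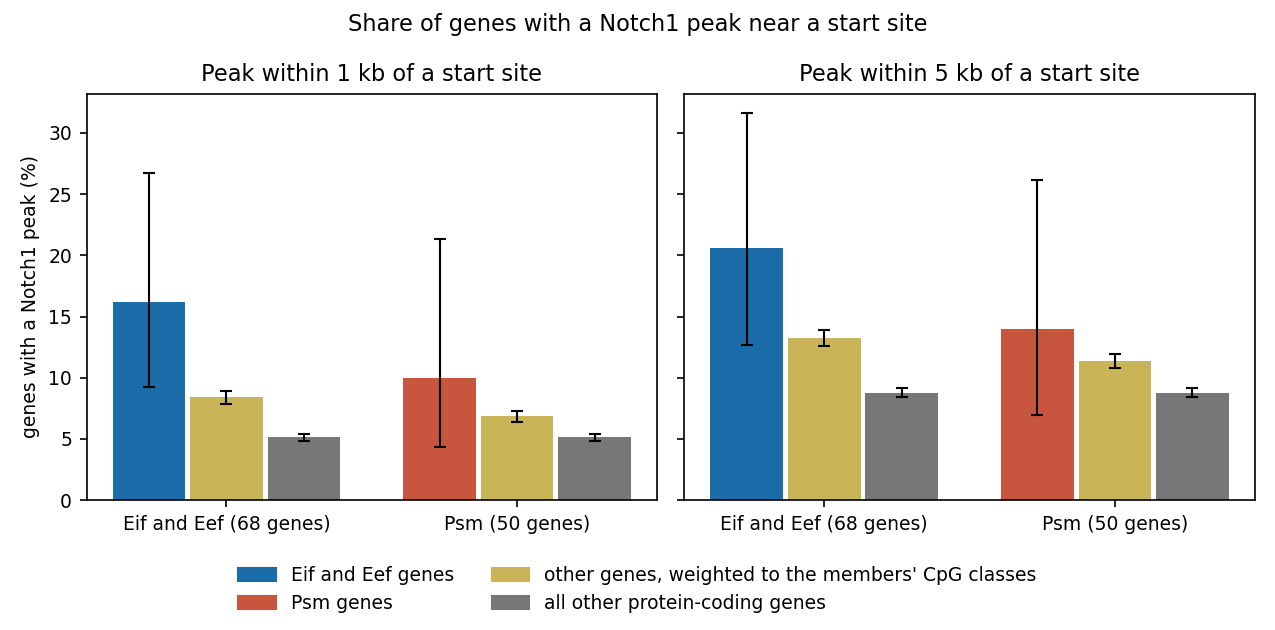
Bars give the percent of genes with a Notch1 peak within 1 kb (left) and 5 kb (right) of a start site, for 68 Eif and Eef genes (blue), 50 Psm genes (red), other genes weighted to the members' CpG classes (yellow) and all other protein-coding genes (grey). Error bars are 95% intervals, Wilson for the counted shares and normal for the weighted ones. Within 1 kb the blue bar stands at 16.2% beside 8.41% for genes of similar CpG ratio, and the red bar at 10% beside 6.87%.

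Sequences of 8 peaks within 1 kb of a member start site are shown because they are the sequence under the deposited peaks there. Those at Eef1akmt1, Eef1a1, Psme1 and Psme2 lie in introns or exons of the genes, as given with each peak. The 8 have the highest scores, with at least 3 from each group, among peaks with a suitable stretch. Such a stretch has 60 bases or more and holds no more than 30 bases of annotated UTR. By this limit the peaks at Eef1b2 and Psma7 were passed over, although the latter overlaps no annotated UTR of Psma7 itself. Each sequence is up to 200 bases of its peak, written 5′ to 3′ along the gene's own strand from the mm10 assembly (RefSeq GRCm38.p6). Capitals mark matches to any of 12 motifs searched on both strands, which are named after the sequences. They lie on chromosome 11 from 69921929 to 69922011 (Eif5a, minus strand), chromosome 14 from 57568766 to 57568965 (Eef1akmt1, minus), chromosome 9 from 78481016 to 78481215 (Eef1a1, minus), chromosome 15 from 102073366 to 102073565 (Eif4b, plus), chromosome 2 from 105017051 to 105017250 (Eif3m, minus), chromosome 16 from 95990721 to 95990920 (Psmg1, minus), chromosome 14 from 55580425 to 55580624 (Psme1, plus) and chromosome 14 from 55590256 to 55590455 (Psme2, minus).
Eif5a: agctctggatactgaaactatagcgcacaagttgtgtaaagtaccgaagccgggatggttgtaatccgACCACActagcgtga
Eef1akmt1: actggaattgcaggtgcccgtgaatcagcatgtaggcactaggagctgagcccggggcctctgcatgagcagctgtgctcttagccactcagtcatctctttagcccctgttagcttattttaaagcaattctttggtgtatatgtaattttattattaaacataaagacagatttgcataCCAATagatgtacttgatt
Eef1a1: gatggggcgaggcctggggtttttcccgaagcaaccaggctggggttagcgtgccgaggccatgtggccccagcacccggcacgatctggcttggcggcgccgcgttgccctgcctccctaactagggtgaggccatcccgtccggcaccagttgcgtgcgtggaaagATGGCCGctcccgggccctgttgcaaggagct
Eif4b: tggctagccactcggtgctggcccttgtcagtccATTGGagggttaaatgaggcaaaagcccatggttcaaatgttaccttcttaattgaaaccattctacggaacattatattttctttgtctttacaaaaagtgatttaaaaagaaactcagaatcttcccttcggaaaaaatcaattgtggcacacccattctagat
Eif3m: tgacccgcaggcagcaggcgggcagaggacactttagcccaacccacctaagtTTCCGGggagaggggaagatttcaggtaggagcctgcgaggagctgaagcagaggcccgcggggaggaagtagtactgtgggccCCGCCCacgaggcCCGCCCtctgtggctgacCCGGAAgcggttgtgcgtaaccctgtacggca
Psmg1: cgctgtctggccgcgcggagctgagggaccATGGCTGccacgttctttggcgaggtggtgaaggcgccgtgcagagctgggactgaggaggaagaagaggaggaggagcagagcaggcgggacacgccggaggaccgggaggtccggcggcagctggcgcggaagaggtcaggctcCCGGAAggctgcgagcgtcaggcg
Psme1: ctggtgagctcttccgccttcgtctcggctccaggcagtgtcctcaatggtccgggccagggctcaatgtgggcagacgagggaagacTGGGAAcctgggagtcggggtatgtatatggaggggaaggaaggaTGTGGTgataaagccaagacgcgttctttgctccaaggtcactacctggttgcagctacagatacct
Psme2: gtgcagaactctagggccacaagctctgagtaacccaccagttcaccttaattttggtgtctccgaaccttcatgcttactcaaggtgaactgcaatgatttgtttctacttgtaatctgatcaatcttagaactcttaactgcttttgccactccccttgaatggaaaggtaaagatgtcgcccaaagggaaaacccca

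In the Eif5a sequence an annotated start site is base 54, counted from the 5′ end, and a RUNX motif begins at base 69. In Eif3m a start site is base 171, with ETS motifs at bases 54 and 169 and SP/KLF boxes at bases 138 and 151. In Psmg1 an annotated start site inside the gene is base 31, where the letters ATGGCTG, a YY1 match, also begin. An ETS motif stands at base 177. The Psmg1 and Eif3m peaks overlapped annotated coding sequence as well as start sites. Whether the motif letters in them are coding was not examined. Eef1a1 has a YY1 motif at base 169, Eif4b a CCAAT box at base 35 and Eef1akmt1 a CCAAT box at base 182. Psme1 alone of the 8 holds the RBPJ core TGGGAA in the stretch shown, at base 89, with a RUNX motif at base 134, and the Psme2 stretch holds none of the 12 motifs. A match describes the letters and does not show that a factor was bound.

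The deposited score, the peak caller's own value with no scale stated, was used to rank peaks within the list, whose nuclear median was 718. Among initiation factor genes, Eif5a had the highest score. Its product promotes peptide bond formation at difficult sequences and carries the amino acid hypusine. The peak spanned chromosome 11 from 69921849 to 69922011, covered the first base of a protein-coding transcript and part of the UTR, scored 1571 and ranked 233 of 5913. Eif5a2, the paralogue of Eif5a, had its nearest peak 882 kb away.

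Genes of the cap-binding machinery and its helicase (eIF4A, eIF4B, eIF4E, eIF4G and eIF4H) held a peak within 5 kb at 4 of 12 (33.3%, 13.8 to 60.9). Genes of similar CpG ratio held one at 14.4%, inside that interval, which corresponds to 1.73 genes. Eif4b encodes a cofactor of the helicase, and its peak lay 134 bp upstream of the gene's start site on chromosome 15 from 102073294 to 102073639 (score 901). At Eif4a1, which encodes the helicase, the peak lay on chromosome 11 from 69671536 to 69671915 (score 860). It covered the start of a transcript of the gene that is not annotated as protein-coding, and was 402 bp from a protein-coding start. The Eif4g2 peak, at a gene for a scaffold related to eIF4G that does not bind eIF4E, lay on chromosome 7 from 111082445 to 111082896 (score 718). The start it covered belongs to a transcript not annotated as protein-coding, and the peak was 121 bp from a protein-coding start. The peak counted for Eif4g1, the main scaffold gene, lay in an exon 3030 bp from an annotated start and 17897 bp from the start of a protein-coding transcript (chromosome 16, 20692008 to 20692378, score 870). That peak was nearer to a start site of Fam131a, at 863 bp. None of the 4 genes for the cap-binding protein itself (Eif4e, Eif4e1b, Eif4e2 and Eif4e3) had a peak within 5 kb, the nearest being 23.2 kb away at Eif4e3. Eif4a2, Eif4a3, Eif4g3 and Eif4h had none either.

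The subunits of eIF3, the complex that bridges the small ribosomal subunit and eIF4G, were marked at 2 of 14 genes. The Eif3m peak covered 2 start sites on chromosome 2 from 105016951 to 105017322 (score 869) and also covered a start site of Ccdc73, a gene that begins there too. The Eif3f peak lay 4847 bp upstream of Eif3f on chromosome 7 from 108929234 to 108929570 (score 719). A start site of Nlrp10 was nearer, at 608 bp. Eif3a, Eif3b, Eif3c, Eif3d, Eif3e, Eif3g, Eif3h, Eif3i, Eif3j1, Eif3j2, Eif3k and Eif3l had no peak within 5 kb. The eIF3 share was 14.3%, beside 13.5% for genes of similar CpG ratio.

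The other initiation factor genes with a peak were Eif1ax, Eif6 and Eif4enif1. Eif1ax encodes eIF1A, which works in scanning for the start codon, and its peak lay 175 bp upstream of the start site on chromosome X from 159371582 to 159372003 (score 636, rank 4689). Eif6 encodes a factor that keeps the large ribosomal subunit apart from the small one, and its peak covered a protein-coding start, on chromosome 2 from 155826867 to 155827283 (score 640, rank 4559). Both scores were below the list median. Eif4enif1 encodes the eIF4E transporter 4E-T. Its peak, on chromosome 11 from 3197306 to 3198483, was 1178 bp wide and ranked 5907 of 5913 with a score of 76.5. It lay 3909 bp upstream, was 57.4% soft-masked repeat sequence, and 20.7% of its 32-base strings occur more than once in the assembly. Without it, 13 of 68 translation factor genes (19.1%) had a peak within 5 kb, an alternative chosen after this value was seen.

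No gene of eIF2, which carries the initiator tRNA, of its exchange factor eIF2B or of the kinases that phosphorylate eIF2 had a peak within 5 kb. These are 13 genes (Eif2s1, Eif2s2, Eif2s3x and Eif2s3y, Eif2b1 to Eif2b5, and Eif2ak1 to Eif2ak4), so a share of up to 22.8% lies within the interval, and genes of similar CpG ratio correspond to 1.67 genes with a peak. Their nearest peak lay 19.7 kb from Eif2ak3. The remaining initiation genes without a peak within 5 kb were Eif1, Eif1a, Eif1ad, Eif1b, Eif2a, Eif2d, Eif4ebp1, Eif4ebp2, Eif4ebp3, Eif5 and Eif5b.

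Elongation factor genes held peaks at 4 of 13 (30.8%, 12.7 to 57.6), beside 11.5% for genes of similar CpG ratio, and 3 of these 4 belong to eEF1. Eef1a1 encodes the GTPase that delivers aminoacyl-tRNA. Its peak, on chromosome 9 from 78480908 to 78481324 (score 996), was intronic and covered no start site. It lay 67 bp from a protein-coding start inside the gene. Eef1b2 and Eef1g encode subunits of the factor that recharges eEF1A with GTP. The Eef1b2 peak (chromosome 1, 63176778 to 63177057, score 964) covered the start of that gene and one of its neighbour Ndufs1. The Eef1g peak (chromosome 19, 8966827 to 8967240, score 809) covered the start of Eef1g. Eef1akmt1 encodes a methyltransferase of eEF1A, and its peak (chromosome 14, 57568719 to 57569013, score 1172) was intronic, 916 bp from an annotated start and 2599 bp from a protein-coding one. Eef1a2, whose product takes the place of eEF1A1 in muscle and neurons, had its nearest peak 8.66 kb away, Eef1d 11.6 kb and Eef2, the translocation factor gene, 12.8 kb. Eef1e1, Eef2k, Eef2kmt, Eef1akmt2, Eef1akmt3 and Eef1akmt4 had none within 50 kb.

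**Figure D3:**
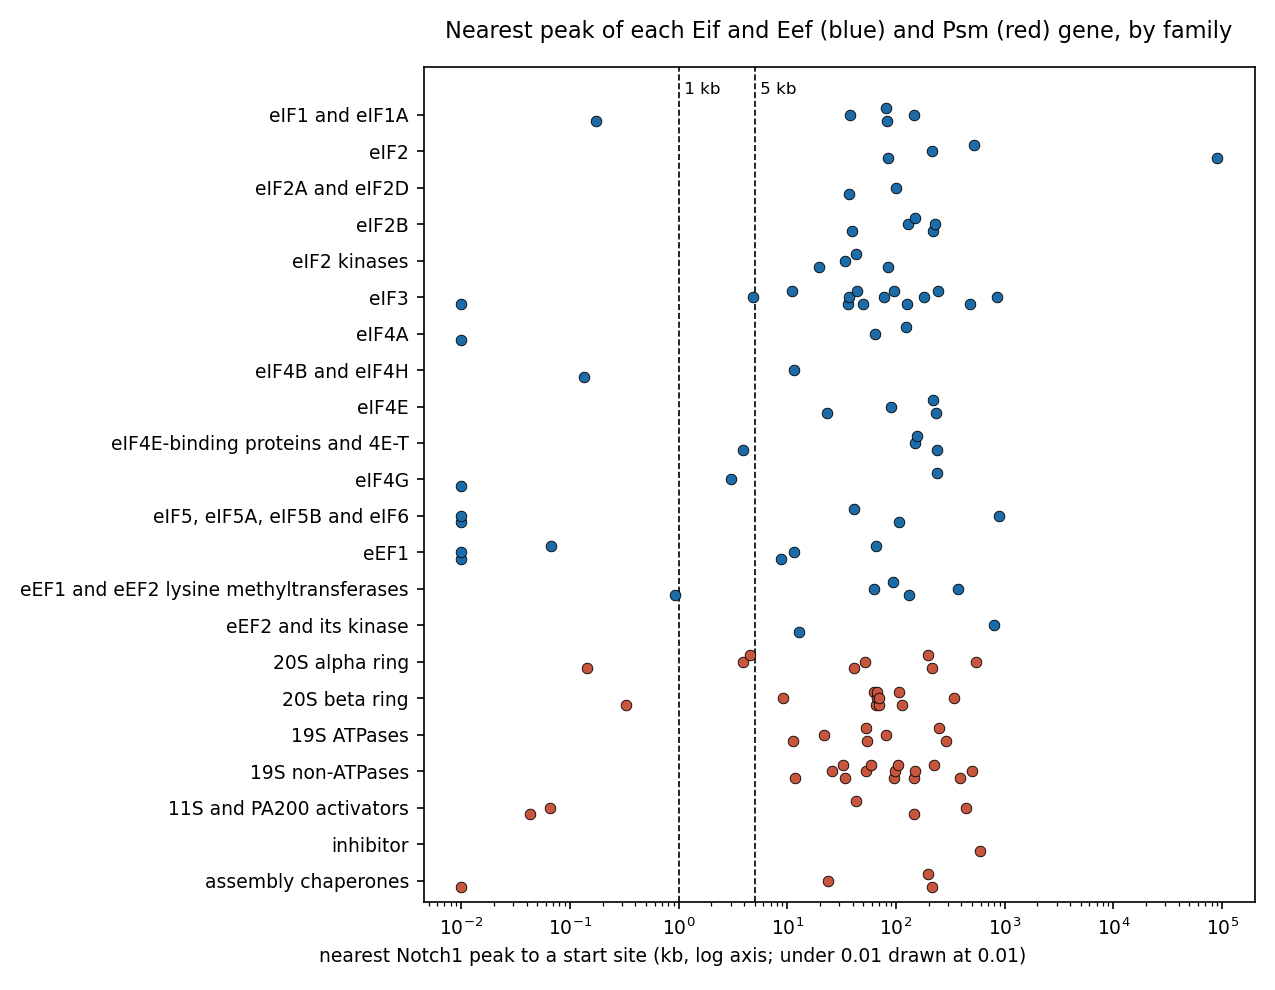
Each point is 1 of the 118 genes, placed by the distance from its nearest annotated start site to the nearest Notch1 peak (horizontal log axis, kb) and grouped by family (vertical axis), with Eif and Eef in blue and Psm in red. Dashed lines mark 1 and 5 kb. Of the translation factor genes 49 of 68, and of the proteasome genes 40 of 50, lie more than 15 kb from a peak.

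Among the proteasome genes, the peaks fell in the 20S core, the 11S activators and the assembly chaperones. Psma7, an alpha ring gene, had a peak with a score of 1401 (rank 323) on chromosome 2 from 180042576 to 180042797, 143 bp upstream of a protein-coding start. It was 67 bp from a start of the neighbouring gene Ss18l1. Psma6 (chromosome 12, 55388120 to 55388464, score 679) and Psma3 (chromosome 12, 70969704 to 70970045, score 547) had peaks farther out, that of Psma6 in an intron 3898 bp from a start and that of Psma3 4576 bp upstream. Psmg1 encodes an assembly chaperone of the alpha ring, and its peak covered 2 start sites on chromosome 16 from 95990694 to 95991116 (score 989). Psmg2, Psmg3 and Psmg4 had no peak within 5 kb.

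Psmb8, Psme1 and Psme2, known to be induced by interferon gamma, had peaks, and their promoters were lower in CpG than those of most members. Psmb8 encodes the immunoproteasome subunit that replaces Psmb5, and it had 2 peaks. The first lay 327 bp upstream of the start on chromosome 17 from 34196971 to 34197394 with a score of 544. The other, with the highest score of any member (1751, rank 161), lay in an exon 1691 bp from a start, on the same chromosome from 34201045 to 34201272. Tap1 and Tap2, which encode the transporter of peptides into the endoplasmic reticulum, flank Psmb8. A start site of Tap1 lay 3917 bp from the first peak, and one of Tap2 lay 2255 bp from the second. Psme1 and Psme2 encode the PA28 alpha and beta subunits of the 11S activator and lie near each other on chromosome 14. The Psme1 peak (55580369 to 55580682, score 746) overlapped an exon. It lay 66 bp from the start of a transcript not annotated as protein-coding and 1794 bp from a protein-coding start. The Psme2 peak (55590192 to 55590520, score 696) also overlapped an exon, 43 bp from an annotated start and 567 bp from a protein-coding one. A further peak (55584802 to 55585185, score 840) lay between them, 4054 bp from a Psme1 start and 3419 bp from a Psme2 start, and covered a start site of Emc9.

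The CpG ratio was 0.580 at Psmb8, 0.460 at Psme1 and 0.459 at Psme2, beside the proteasome median of 0.722. Of 5 interferon-inducible genes, 3 had a peak within 1 kb, beside 3.61% of genes of similar CpG ratio. This group was put together after these values were seen. The same 3 had one within 5 kb (60%, 23.1 to 88.2). Psme1 counts within 1 kb only through a start not annotated as protein-coding. Psmb9 (nearest peak 9.21 kb) and Psmb10 (114 kb) had no peak within 5 kb. The other 45 proteasome genes held a peak within 1 kb in 2 cases (4.44%) and within 5 kb in 4 (8.89%). Genes of similar CpG ratio held one at 7.23 and 11.8%. The shares of the 45 rest on the same choice, which took out 3 genes known to have peaks. The constitutive catalytic subunit genes Psmb5, Psmb6 and Psmb7 had no peak within 5 kb. Psmb11, which encodes the catalytic subunit of thymic epithelium, had its nearest peak 62.2 kb away.

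None of the 21 genes with Psmc and Psmd symbols had a peak within 5 kb, which leaves a share of up to 15.5% within the interval. These are the ATPases of the 19S base (Psmc1 to Psmc6), Psmc3ip, which encodes a meiotic recombination protein named for an interaction and not a subunit, and Psmd1 to Psmd14, of which Psmd5, Psmd9 and Psmd10 encode assembly chaperones of the base and the others subunits without ATPase activity. Genes of similar CpG ratio correspond to 2.53 genes with a peak, so at this number of genes a share equal to theirs is within the interval. Psmc3ip (11.3 kb) and Psmd4 (11.8 kb), the gene of a ubiquitin receptor, came nearest. The remaining genes without a peak within 5 kb were Psma1, Psma2, Psma4, Psma5, Psma8, Psmb1, Psmb2, Psmb3, Psmb4, Psme2b, Psme3, Psme4 and Psmf1.

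**Figure D4:**
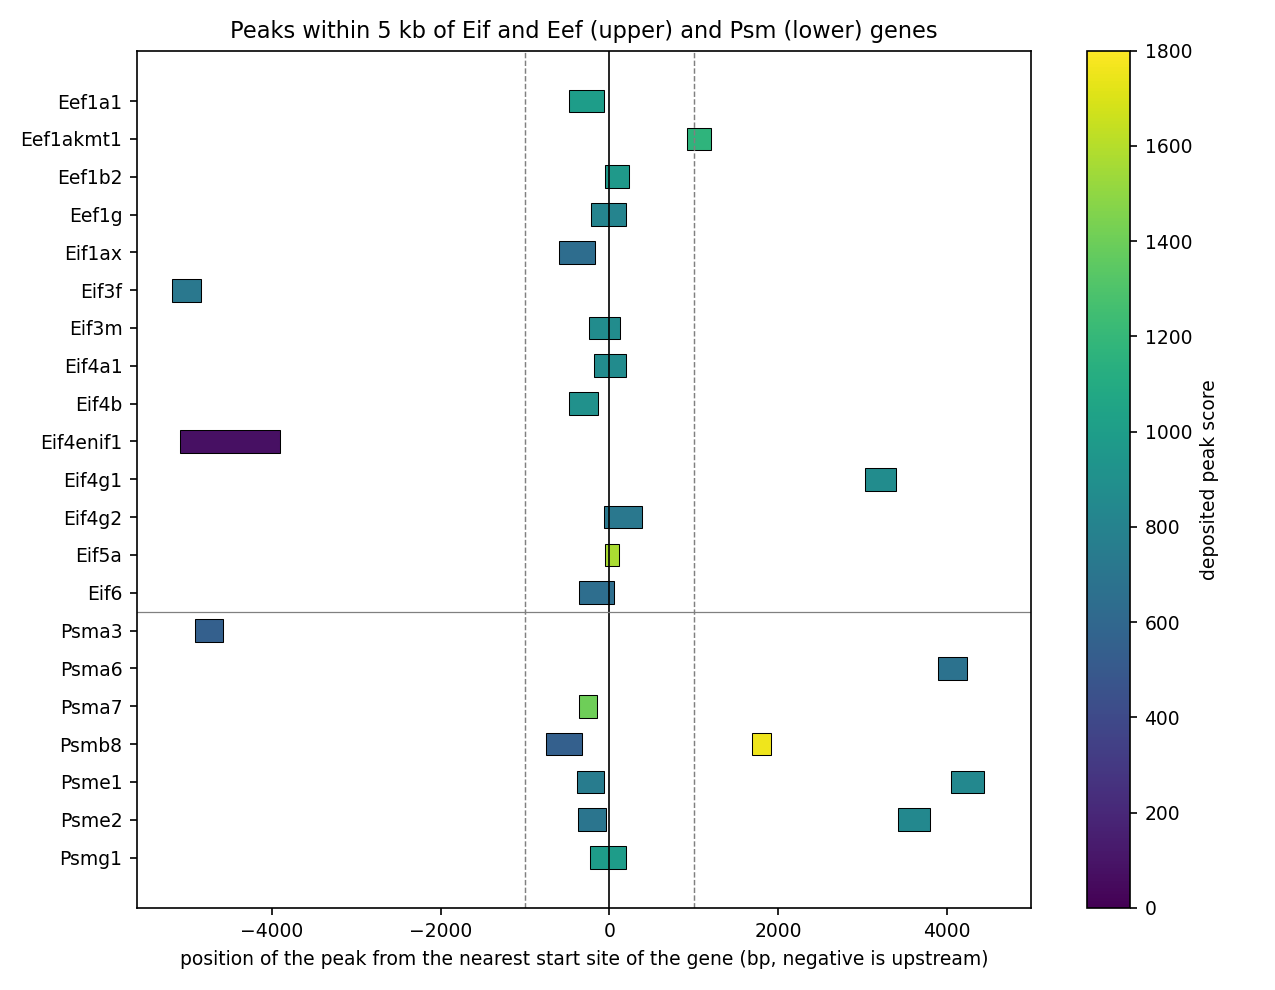
Bars show each peak within 5 kb of a member, from its first to its last base, against the nearest annotated start site of that gene (horizontal axis, bp, upstream negative), coloured by deposited score, with Eif and Eef genes above the line and Psm genes below it. Dashed lines mark 1 kb on either side. The Psme1 and Psme2 bars on the right are 1 peak shared by both genes, and the brightest bar is the exonic peak at Psmb8 (score 1751).

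The members rested on 23 distinct peaks, 14 at translation factor genes and 9 at proteasome genes. Of the 11 translation factor peaks within 1 kb, 7 covered a start site, as did 1 of the 5 proteasome peaks (Psmg1). All 5 of the latter had their midpoint upstream of the nearest annotated start, which for Psme1, Psme2 and Psmg1 lies inside the gene. Median scores within 1 kb were 869 at translation factor genes, 746 at proteasome genes and 749 at the 1157 peaks of other genes. At or above the list median stood 9 of 11, 3 of 5 and 650 of 1157 (56.2%) of these peaks. Median widths were 380, 329 and 385 bp, and median GC contents 57.1, 54.8 and 52.4%. Some peaks held sequence that occurs more than once. Beside the Eif4enif1 peak, strings of 32 bases found elsewhere in the assembly made up 14.1% of the Psme1 peak, 9.48% of that at Eif3f, 4.40% at Eif3m and 3.92% at Eef1g, and 0% of the other peaks. The peaks at Eef1a1 and Eif5a, genes for which processed pseudogenes are known, held no such strings. That count takes only exact matches, and the Eef1a1 peak lay in an intron, which a processed pseudogene lacks. It therefore cannot show whether reads from pseudogenes were placed at these peaks. The farthest members counted within 5 kb were Eif3f (4847 bp) and Psma3 (4576 bp), and the nearest outside it were Eef1a2 (8660 bp) and Psmb9 (9207 bp). Within 1 kb the farthest was Eef1akmt1 (916 bp), and the nearest outside it was Eif4g1 (3030 bp). For Eif3f, Eif4enif1, Eif4g1 and Psma7, the start site nearest to the peak belonged to another gene. Given only to the gene with the nearest start site, peaks marked 11 translation factor genes within 1 kb and 11 within 5 kb, and 4 and 6 proteasome genes.

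Motifs in the whole peaks were counted on both strands, beside the 1157 peaks within 1 kb of other genes. The GC box GGGCGG of SP and KLF proteins was in 8 of 11 translation factor peaks (72.7%, 43.4 to 90.3), 1 of 5 proteasome peaks and 35.3% of the peaks of other genes. The ETS core CCGGAA was in 5 of 11, 1 of 5 and 20.5%, and ATGGCNG, the core of the YY1 site, in 5 of 11, 1 of 5 and 20.7%. The RBPJ core TGGGAA was in 1 of 11 translation factor peaks (Eif6), in 1 of 5 proteasome peaks (Psme1) and in 31.7% of the peaks of other genes. Neither the interferon element searched as GAAANNGAA nor the antioxidant element TGACNNNGC, known as a site of the factor Nfe2l1 that drives proteasome genes, was in any of the 16 peaks, beside 10.9 and 15.4% of the peaks of other genes. RUNX (18.8%) and E-box (18.8%) motifs stood in 3 of the 16 peaks each, beside 29.6 and 20.1%, and NRF1 in 1, beside 2.59%. The E-box form searched did not include CAGCTG. The Eef1akmt1 and Psmg1 peaks hold those letters and were not counted, so these peaks are not free of every E-box form. The CCAAT box was in 7 of 16 (43.8%, beside 36.2%), the longer RBPJ consensus in 1 (Eef1g, 6.25 beside 6.83%) and the STAT element TTCNNNGAA in 1 (Eif5a, 6.25 beside 10.3%). With so few peaks the intervals are wide, the peaks of other genes were not weighted by CpG ratio, and no difference in motif was tested.

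Promoter sequence of the members was also counted without regard to peaks, in the RefSeq windows from 250 bp before to 50 bp after a start site, which 94 of the 118 members matched. The ETS core was in 24 of 52 translation factor genes (46.2%), 21 of 42 proteasome genes (50%) and 20.8% of 17398 other genes. The GC box was in 75, 54.8 and 49.1%, and the RBPJ core in 32.7, 28.6 and 27.4%. The longer RBPJ consensus was in 7 of 52 translation factor genes (13.5%), 0 of 42 proteasome genes and 4.73% of other genes. The ETS core was thus in a higher share of promoters in both groups than in other genes, counted over members with and without a peak. The ETS core and the GC box each hold a CpG, and the other genes here were not weighted to the members' CpG ratios. The difference was not tested.

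mRNAs of many translation genes begin with a C and a run of pyrimidines, the 5′ TOP element through which mTOR controls their translation. A protein-coding start site with C and then 4 pyrimidines was annotated for 9 translation factor genes (13.2%), for 0 proteasome genes and for 5.10% of other genes. Of those 9, 4 had a peak within 5 kb (Eef1b2, Eif3f, Eif3m and Eif4g2), and 5 did not (Eef1d, Eif2b4, Eif2s1, Eif2s3x and Eif4a2). Among the 59 translation factor genes without such a start, 10 had a peak (16.9%). Other genes with such a start had a peak in 11.4% of 1112 cases, and those without in 8.62% of 20708. A gene was counted if any of its protein-coding start sites matched. Genes with more annotated starts therefore had more chances both to match and to lie near a peak. These shares were not weighted by the number of start sites. An annotated start can differ from the base used in these cells, so the count is approximate. It does not sort the genes into those with and without a TOP element. Eef1a1, Eef1g and Eif4b, each with a peak, and Eef2, without one, had no such annotated start.

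Genes of the same pathways with other names were taken from 11 lists written from general knowledge, but with earlier results of these data known. Partners of eIF4F and of the scanning ribosome had a peak within 5 kb at 5 of 19 (26.3%, 11.8 to 48.8), beside 13.7% for genes of similar CpG ratio. They were Rack1 (score 963), a ribosomal scaffold gene, Pabpc1 (862), the gene of the poly(A)-binding protein, Paip2 (769), Gigyf2 (685) and Pdcd4 (587), the gene of an inhibitor of eIF4A. On the list of mTOR and MNK signalling 4 of 21 (19.05%, 7.67 to 40) had one, beside 13.4%: Akt1 (1118), Mlst8 (1106), the mTOR kinase gene Mtor (975) and Rheb (843), whose product activates it. Termination and ribosome rescue had 3 of 10 (Ascc3, 963, Pelo, 885, and Hbs1l, 685), beside 14.4% for genes of similar CpG ratio. The stress response downstream of eIF2 had 2 of 11 (Ppp1r15a, 736, and Atf3, 664), beside 13.97%, and mitochondrial translation factors had 2 of 10 (Mtrf1l, 849, and Mrrf, 634), beside 11.4%. Cytosolic aminoacyl-tRNA synthetases had 1 of 22 (Vars, 674), beside 11.8%.

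On the proteasome side, partners and regulators not named Psm had 1 of 22 (Ecpas, 685), beside 13.2% for genes of similar CpG ratio, and p97 with its adaptors had 0 of 11, which allows up to 25.9%, beside 14.4%. The COP9 signalosome, a relative of the 19S lid, had 2 of 10 (Cops2, 1157, and Cops7b, 808), beside 12.4%, and the cytosolic chaperonin and prefoldin had 1 of 13 (Cct5, 638), beside 12.9%. Class I peptide loading had 3 of 8 (Tap2, 1751, Pdia3, 704, and Tap1, 544), which is 37.5% (13.7 to 69.4) beside 9.97% for genes of similar CpG ratio. The peaks counted for Tap1 and Tap2 are the 2 peaks of Psmb8 described above, so this count does not stand apart from the proteasome genes. In the other 10 lists the interval held the share of genes of similar CpG ratio.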

How the data were processed

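The 1 Notch1 library was represented by a peak list without a header, whose column 5 is a deposited score per peak, the authors' own value on an unstated scale. Per the submitters' processing notes, Bowtie 1.0.0, SAMtools 0.1.18 and build mm10 were used. Per the labels' protocols, chromatin was fixed with 0.5% formaldehyde for 5 min and libraries received 18 PCR cycles, so duplicate reads could raise a score. Peak names begin with MACS. For its version, control, treatment of duplicates and read depth, values were not given in the sources used here.

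Peaks were set on the GRCm38 assembly with GENCODE M21, all transcripts of each protein-coding gene giving start sites, and 3 mitochondrial peaks were left out. A gene had a peak if at least 1 bp lay within 1 or 5 kb of a start site. CpG ratios used 500 bp on either side of start sites and were divided into 10 equal classes, and shares of other genes were weighted by the members' classes. Pathway lists were matched by symbol or RefSeq synonym. Repeated sequence was counted as 32-base strings. Printed sequences were limited to 30 UTR bases. Named genes were all members with a peak within 5 kb and, of the pathway lists, all genes with one; members without a peak were named by family. Members, lists and alternatives were chosen with earlier results of these data known. Python 3.11.15, numpy 2.4.6, pandas 2.3.3, SciPy 1.17.1 and pysam 0.24.0 were used, and the counting was checked on planted peaks. No test was made, because 1 library gives no replicate and genes are not replicates.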

Additional observations from a re-analysis of the deposited data

How the results depend on the processing

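The translation factor share lay above that of genes of similar CpG ratio under all 11 alternatives run within 1 kb and all 12 within 5 kb, at 1.23 to 2.62 times. Windows of 2, 10 and 20 kb give the same value under both distances. The alternative without the Eif4enif1 peak was chosen after its value was seen. All alternatives reuse the same peak list, so they are not separate evidence. The proteasome share lay above it under 8 of 10 alternatives at each distance. With a window of 20 kb it was 0.921 times (20 beside 21.7%), the same for both distances. With only subunits of the 20S core and 19S regulator it was 0.786 times within 1 kb (2 of 36 genes) and 0.951 times within 5 kb (4 of 36), so that ratio fell below 1.

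A share left its own interval in these cases. A window of 20 kb gave 29.4% of translation factor genes, beside 23.8% of genes of similar CpG ratio. Peaks in the upper quartile of score gave 5.88% at either distance for translation factors (beside 2.71 and 4.03%) and 4% within 1 kb and 6% within 5 kb for proteasome genes (beside 2.06 and 3.29%). Fewer peaks are counted there by construction. The mean CpG ratio over start sites lowered the weighted share for translation factors to 7.30% within 1 kb and 11.4% within 5 kb, and the ratio over the narrower promoter window to 7.72 and 12.4%. The cause was not tested. No paired analysis was possible because there is 1 antibody library, and depth is unknown.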
